A study of Astatotilapia calliptera with 66 samples.

Results

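The genes described here are 60 chaperone and protein folding genes, of 29676 genes in a liver RNA-seq table of the cichlid fish Astatotilapia calliptera. They were chosen by symbol alone: heat shock protein genes (hspa, hspb, hspd and hsp followed by a digit), J-domain genes (dnaj), protein disulfide isomerases (pdia), hyou1, and the numbered subunits of the CCT chaperonin. They were sorted into 5 classes. These were 11 cytosolic heat shock protein genes, 15 genes of folding in the endoplasmic reticulum (ER), 7 CCT subunit genes, 6 mitochondrial genes and 21 other J-domain genes. The ER, CCT and mitochondrial classes were set by lists. Genes on none of these lists went by symbol into the first or the last class, whatever the place of their product. In the first class, hspbp1, hspbap1 and hspb11 are named for heat shock proteins but do not encode chaperones themselves. The list is not complete, because 66.4% of the genes in the table carry only a LOC identifier. Among the 18 landmark symbols looked for, hspa5 (BiP), hspa8 (the constitutive Hsp70), hsp90aa1, hspe1 and pdia2 matched no entry and were not analysed here.

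Chaperones bind proteins that are not yet folded or have come unfolded, and keep them from clumping. Hsp70 proteins take their clients from J-domain co-chaperones and release them with the help of nucleotide exchange factors, Hsp90 finishes the folding of many kinases and receptors, small heat shock proteins hold unfolded clients, and the ring-shaped CCT chaperonin folds actin and tubulin. Heat and other proteotoxic stress induce cytosolic chaperones through the transcription factor Hsf1, whereas an excess of unfolded secretory protein induces ER chaperones through Xbp1, Atf6 and Atf4. Liver cells secrete most plasma proteins and therefore depend on ER folding.

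Livers of 13 wild-caught adult males were measured, 4 riverine fish from the Mbaka River, 4 littoral fish and 5 benthic fish, the latter from shallow and deep water of the neighbouring crater lake Masoko. No treatment was given, no females were sampled, and each library is 1 fish. By the study's methods, divers drove the lake fish into gill nets at set depths, whereas local fishermen caught the riverine fish. Capture and population therefore cannot be told apart between river and lake fish. Expression is given in TPM, a transcript's share of all transcripts corrected for its length, and the read depth behind a gene is unknown. By the run identifiers in the labels, all 4 riverine livers and littoral 1 were sequenced in a first run, and littoral 2 to 4 with all 5 benthic livers in a second, so population and run cannot be told apart between riverine and benthic fish.

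The livers differed in other ways that touch the chaperone genes. Between 19921 and 24012 genes were above 0 TPM, with all benthic livers at 22938 or more. The liver markers fgb and fgg stood between 5683 and 15158 TPM in every liver. The 6 hepatocyte genes in the table summed to between 21608 TPM, in benthic 5, and 44188 TPM, in riverine 2. The 3 exocrine pancreas genes in the table (cpb1, pla2g1b and ptf1a) summed to between 144 and 2441 TPM, highest in riverine 3 and littoral 2. The 9 leukocyte genes summed to 251 TPM in benthic 5 and to between 2.91 and 42.2 TPM in the other livers. Most other defining markers of these cell types were not among the symbols of the table. In such bulk samples, fewer cells of a type and less RNA per cell cannot be told apart.

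In each of 3 comparisons, log2(TPM + 0.1) was tested with limma over the 21147 genes that averaged 0.1 TPM or more, 59 of the 60 chaperone genes among them. The comparisons share livers, so their results are not independent. The exception was dnajc6, with a mean of 0.0699 TPM. A gene was called higher or lower where its Benjamini-Hochberg adjusted p was under 0.05. Most genes of the table lay higher in the lake fish on this scale, with median fold changes (log2) of 0.40 in littoral and 0.62 in benthic fish against riverine fish, and of 0.20 in benthic against littoral ones. After median-of-ratios scaling between livers, these medians were 0.09, 0.14 and 0.02. Fold changes below are unscaled unless stated, and are to be read against these medians.

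The 60 genes together made up between 0.154% and 0.241% of all TPM. Of these genes, 26 averaged 10 TPM or more, 22 lay between 1 and 10 TPM, and 11 between 0.1 and 1 TPM. Cytosolic hsp90ab1 was the most abundant with a mean of 499 TPM, followed by the ER isomerase pdia3 with 306 TPM and the ER Hsp90 paralogue hsp90b1 with 101 TPM. The classes differed in how much fish of the same population varied. Among genes averaging 10 TPM or more, the median within-population SD on the log2 scale was 0.34 for 7 CCT genes and 0.30 for 3 mitochondrial genes, but 0.74 for 7 ER genes, with 0.55 over all 3662 such genes in the table.

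**Figure D1:**
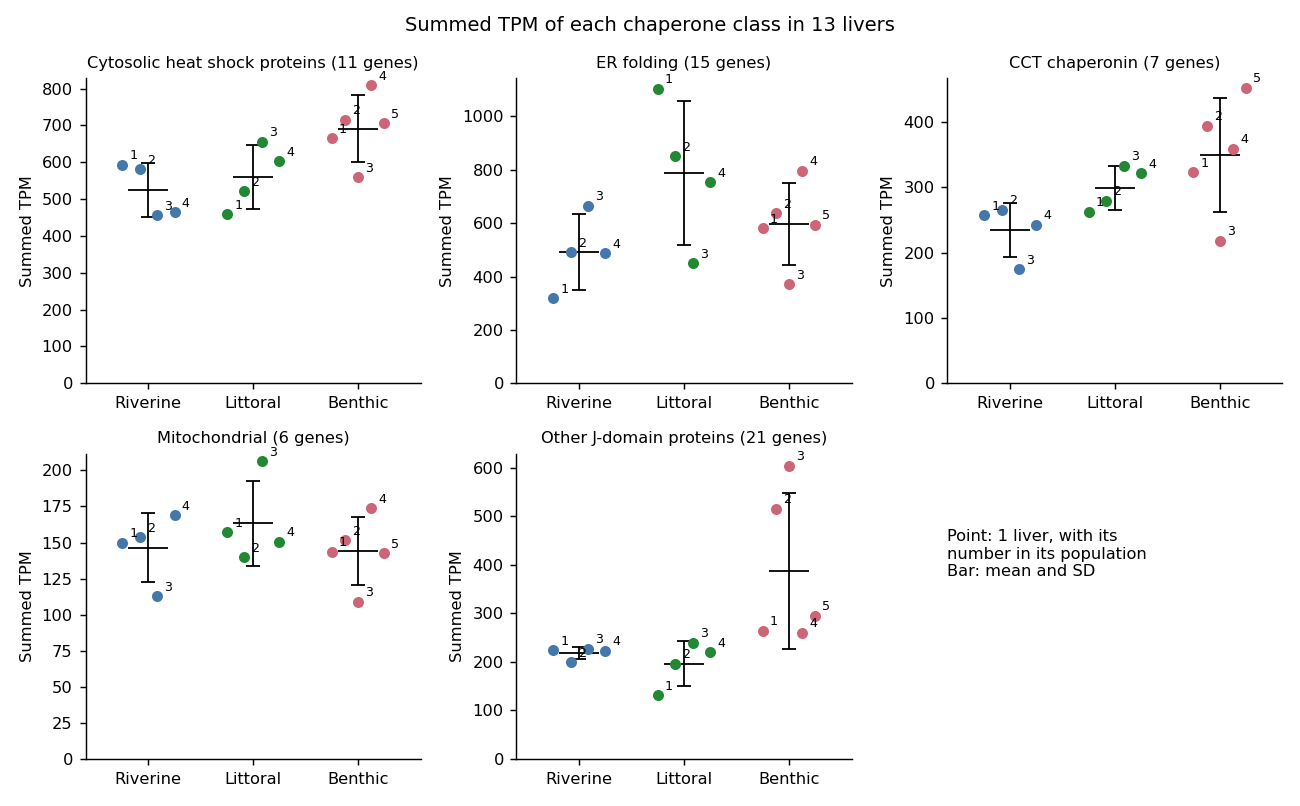
Summed TPM of each chaperone class (y axis, from 0) in each liver, grouped by population. Points are livers with their number, and bars are the mean and SD. The sum of the other J-domain genes was highest in benthic 3 and 2, at 605 and 516 TPM, and the ER sum was highest in littoral 1, at 1103 TPM.

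All 60 genes together summed to between 1544 and 1691 TPM in riverine livers and to 1862 TPM or more in every lake liver, as deposited. After division by the median-of-ratios factors of the livers, this separation was lost. Riverine 1, the lowest liver as deposited, then lay above littoral 2 to 4 and above all benthic livers. The scaling factors were between 0.657 and 1.06 in riverine livers, between 0.667 and 1.43 in littoral ones and 1.01 or more in benthic ones. For the other J-domain genes the 5 benthic livers lay between 260 and 605 TPM as deposited. The 8 other livers lay between 131 and 239 TPM, without overlap. After division by the factors, the other J-domain sums of benthic 1, 4 and 5 were below those of riverine 1, 3 and 4. The sums of benthic 2 and 3 stayed above those of all riverine and littoral livers. Without dnajb1, the other J-domain sum as deposited was between 177 and 224 TPM in riverine and 108 and 224 TPM in littoral livers. It was between 197 and 232 TPM in benthic livers, and the 3 ranges overlapped. The CCT genes summed to between 175 and 266 TPM in riverine, 262 and 333 TPM in littoral and 218 and 453 TPM in benthic livers. Cytosolic heat shock genes summed to 524 ± 73.2 TPM (SD, n = 4) in riverine, 560 ± 86.7 TPM (SD, n = 4) in littoral and 691 ± 90.8 TPM (SD, n = 5) in benthic fish. Of this sum 83.2% was hsp90ab1, without which the means were 111, 65.9 and 120 TPM in the same order, lowest in littoral fish. The ER genes summed to 491 ± 142 TPM (SD, n = 4), 789 ± 270 TPM (SD, n = 4) and 596 ± 153 TPM (SD, n = 5) in the same order. Without pdia3, which made up 49.1% of the ER sum, the means were 176, 484 and 297 TPM. The class sums depended on scaling. As log2 differences, the benthic sums of cytosolic heat shock genes and of ER genes lay 0.40 and 0.29 above the riverine ones as deposited, and at −0.20 and −0.31 after median-of-ratios scaling. The benthic minus riverine difference of the other J-domain genes was 0.74 as deposited and 0.14 after scaling. Littoral minus riverine differences are given for cytosolic, ER, CCT, mitochondrial and other J-domain sums, in this order. They were 0.09, 0.66, 0.36, 0.16 and −0.19 as deposited, and −0.29, 0.28, −0.02, −0.22 and −0.57 after scaling.

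Most calls came from the comparison of riverine with benthic fish. Of the 59 genes, 8 were higher in benthic fish, beside 9.66% of all genes tested, and 1 was lower, beside 1.49%. The 8 were the J-domain genes dnajb1 and dnajb2, the small heat shock gene hspb1, the Hsp70-related genes hspbp1 and hspa14, the chaperonin subunit cct7, the ER gene dnajc10 and the mitochondrial gene dnajc15, and the lower one was hspb6. The share higher, 13.6%, was near that of the table. At an unadjusted p under 0.05 there were 21 genes, or 35.6%, beside 32.8% of all genes. All benthic livers lay above all riverine livers for 6 genes, beside 14.2% of all genes, and below them for 1 gene, beside 2.52%. Only dnajb1, hspb1 and hspb6 met the stricter thresholds of a log2 fold change of at least 1.5 and 10 TPM in any fish, which 2.93% of all genes met. After median-of-ratios scaling, 2 genes were higher (dnajb1 and hspb1), beside 5.15% of all genes, and 2 lower (hspb6 and dnajc7), beside 4.82%.

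**Figure D2:**
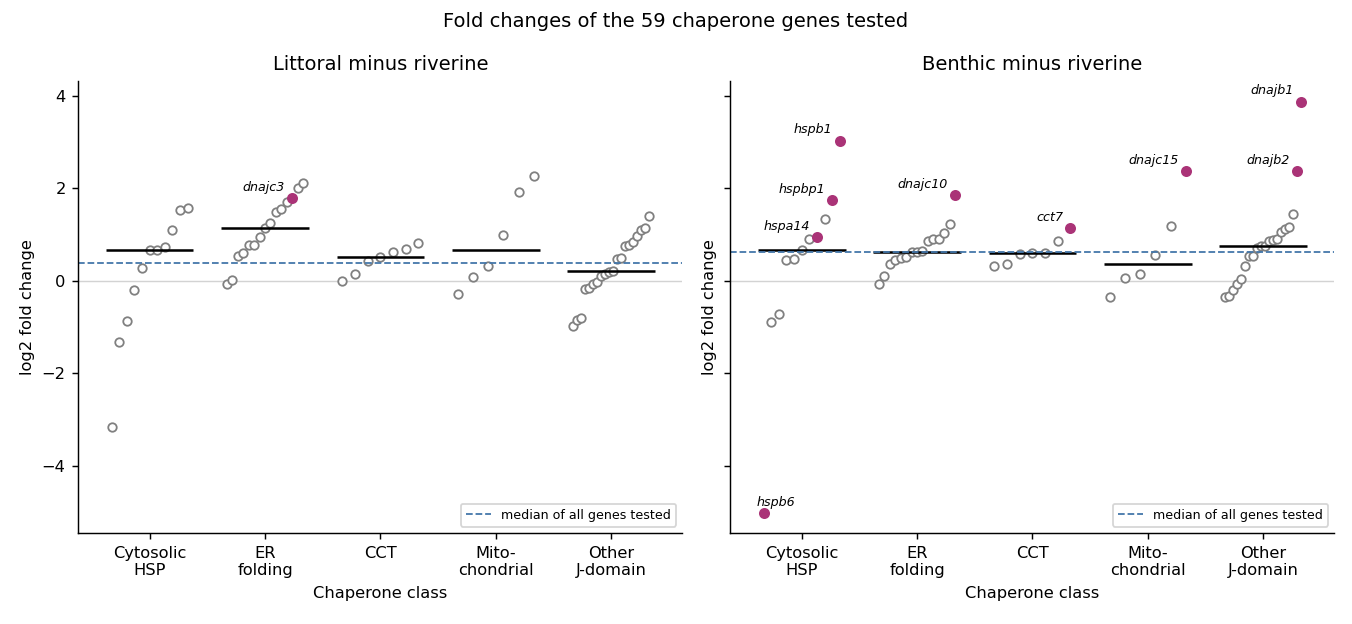
Log2 fold change (y axis) of each of the 59 chaperone genes tested by class (x axis), for littoral minus riverine (left) and benthic minus riverine fish (right). Filled points with names passed an adjusted p of 0.05, black lines are class medians and the dashed line is the median of all genes tested, 0.40 on the left and 0.62 on the right. The ER median lies at 1.14 on the left and at 0.63 on the right.

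The largest rise among the chaperone genes in benthic against riverine fish was that of dnajb1, which encodes the heat-inducible Hsp40 that brings clients to Hsp70. Its level was 8.68, 22.5, 3.56 and 5.4 TPM in riverine 1 to 4 and 22.8, 9.72, 14.8 and 17.1 TPM in littoral 1 to 4. In benthic 1 to 5 it was 51.4, 304, 408, 54.3 and 62.7 TPM. Every benthic liver was above every other liver, and benthic 2 and 3 stood far above the remaining 3. Against riverine fish the log2 fold change was 3.88 ± 0.67 (SE, adjusted p = 0.00678 by limma, exact permutation p = 0.00794). The fold change was 3.28 after median-of-ratios scaling (adjusted p = 0.0182) and 2.82 without benthic 2 and 3 (adjusted p = 0.0299). Against littoral fish it was 2.92 ± 0.67 (SE) with an adjusted p of 0.0848. The 3 littoral livers of the second run, shared with all benthic livers, lay between 9.72 and 17.1 TPM, below the lowest benthic liver. With the run as a covariate, which rests on littoral 1 alone, the benthic fold change against riverine fish was 4.63 with an adjusted p of 0.115.

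The small heat shock protein Hspb1 (Hsp27) holds unfolded clients until Hsp70 takes them over. Its gene was at 2.81, 4.15, 3.97 and 3.91 TPM in riverine 1 to 4 and at 2.87, 8.0, 6.48 and 7.88 TPM in littoral 1 to 4. In benthic 1 to 5 it reached 7.30, 73.2, 107, 11.6 and 40.9 TPM. All benthic livers were above all riverine livers, and only benthic 1 lay within the range of the littoral ones. The benthic log2 fold change against riverine fish was 3.03 ± 0.67 (SE, adjusted p = 0.0179 by limma), and 2.02 without benthic 2 and 3 (adjusted p = 0.0711).

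The co-chaperone Dnajb2, which in mammals directs Hsp70 clients to the proteasome, was a low transcript outside the benthic fish. It was at 0.738, 0.679, 1.828 and 0.343 TPM in riverine 1 to 4 and between 0.619 and 1.24 TPM in littoral fish. In benthic 1 to 5 its level was 1.97, 8.99, 9.89, 1.06 and 8.43 TPM. Benthic 2, 3 and 5 were high, benthic 1 lay just above all riverine livers, and benthic 4 overlapped them. The log2 fold change against riverine fish was 2.38 ± 0.64 (SE, adjusted p = 0.0338 by limma), and 1.66 without benthic 2 and 3 (adjusted p = 0.156).

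Hspbp1 is a nucleotide exchange factor of Hsp70. Its gene was at 1.65, 0.990, 0.937 and 1.62 TPM in riverine 1 to 4, at 1.87, 4.27, 3.90 and 2.00 TPM in littoral 1 to 4, and at 1.95, 9.50, 6.08, 2.96 and 5.11 TPM in benthic 1 to 5. Riverine livers lay below all lake livers, and the benthic and littoral ranges overlapped. The benthic log2 fold change against riverine fish was 1.743 ± 0.449 (SE, adjusted p = 0.0291 by limma), and 1.17 after median-of-ratios scaling (adjusted p = 0.0845).

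Some further genes had their highest levels in benthic 3 and 2, and were picked after their values were seen. The Hsp110-like exchange factor gene hspa4l was at 2.62 and 4.00 TPM in benthic 2 and 3 and between 0.0925 and 0.492 TPM in the other 11 livers. The co-chaperone gene bag3, which links Hsp70 and small heat shock proteins to autophagy and is not one of the 60, was at 36.7 and 43.6 TPM in these livers and between 1.03 and 4.09 TPM elsewhere. The Hsp90 activator gene ahsa1 was at 18.3 and 24.4 TPM there and between 5.966 and 13.002 TPM elsewhere. As populations these genes did not pass: the benthic minus riverine log2 fold changes were 1.34 for hspa4l (adjusted p = 0.248 by limma), 2.20 for bag3 (adjusted p = 0.0738) and 0.85 for ahsa1 (adjusted p = 0.0971). The transcript of Hsf1 itself was at 15.1, 20.9, 16.4, 9.03 and 20.9 TPM in benthic 1 to 5, and between 3.75 and 15.5 TPM in the 8 other livers. Benthic 2, 3 and 5 lay above every riverine and littoral liver in TPM as deposited. The benthic minus riverine log2 fold change of hsf1 was 0.61 (adjusted p = 0.292 by limma), near the median of 0.62 for all genes.

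**Figure D3:**
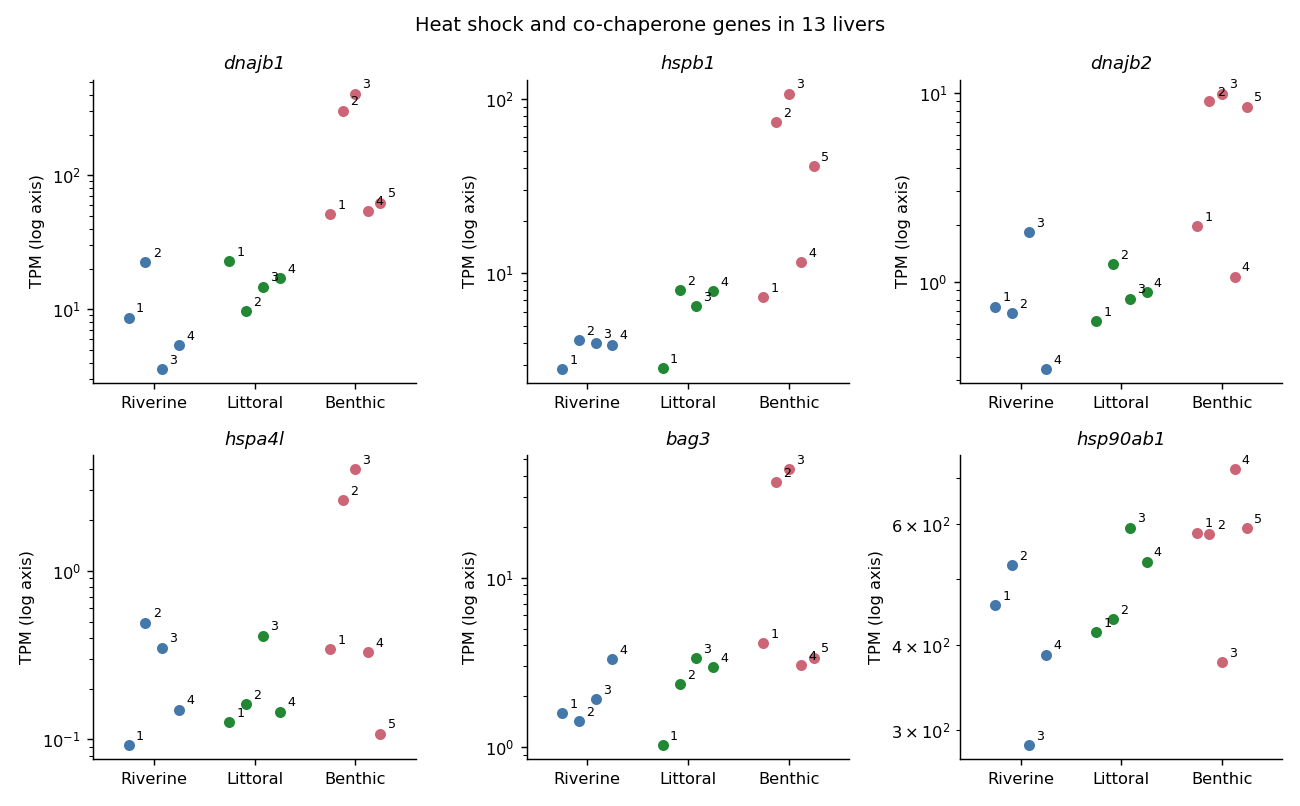
TPM of dnajb1, hspb1, dnajb2, hspa4l, bag3 and hsp90ab1 in each liver (y axis, logarithmic and different in each panel), grouped by population, with the number of each liver beside its point. Benthic 2 and 3 are the highest livers for hspb1, hspa4l and bag3, but rank 5 and 12 of 13 for hsp90ab1.

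The cell-type markers differed in how far they followed this pattern. The leukocyte genes, at 251 TPM in benthic 5, were at 32.0 and 18.9 TPM in benthic 2 and 3 and at 22.8 and 9.17 TPM in benthic 1 and 4. Littoral 2, at 42.2 TPM, lay above benthic 1 to 4. The red cell membrane gene rhag was at 3.495, 13.4, 8.91, 1.76 and 12.5 TPM in benthic 1 to 5, and at 1.27 TPM or less in all riverine and littoral livers. Benthic 2, 3 and 5 were the highest benthic livers for rhag, hspb1, dnajb1 and dnajb2 alike. The gene of the erythroid transcription factor Gata1 went the other way, at 0.917 to 12.4 TPM in riverine, 0.074 to 2.18 TPM in littoral and 0.0819 to 0.50 TPM in benthic livers, so that all benthic livers lay below all riverine ones. The 3 erythroid genes in the table together did not separate the populations, with sums between 3.78 and 15.0 TPM outside and between 5.00 and 16.8 TPM within the benthic fish. Their part in the result was not tested.

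The abundant cytosolic chaperone genes overlapped between populations. The constitutive Hsp90 gene hsp90ab1 was at 457, 523, 285 and 387 TPM in riverine 1 to 4, at 418, 436, 593 and 529 TPM in littoral 1 to 4, and at 584, 580, 377, 722 and 592 TPM in benthic 1 to 5. Benthic 3 lay below every littoral liver, and the benthic minus riverine log2 fold change was 0.47 ± 0.24 (SE, adjusted p = 0.193 by limma). The small heat shock gene hspb8, a partner of Bag3, was the second most abundant of the class. It was at 65.7, 34.3, 143 and 50.8 TPM in riverine 1 to 4, and had means of 25.9 ± 6.61 TPM (SD, n = 4) in littoral and 40.6 ± 12.6 TPM (SD, n = 5) in benthic fish. Its littoral minus riverine log2 fold change was −1.33 ± 0.41 (SE) with an adjusted p of 0.107.

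Hspa14, a ribosome-bound Hsp70, showed a smaller difference. Its gene was at 9.92, 12.4, 7.22 and 9.34 TPM in riverine 1 to 4, between 15.0 and 15.5 TPM in the 4 littoral livers, and at 14.7, 23.8, 11.4, 22.3 and 24.2 TPM in benthic 1 to 5. Riverine and littoral livers did not overlap, and benthic 3 lay inside the riverine range. The benthic log2 fold change against riverine fish of 0.95 ± 0.28 (SE, adjusted p = 0.0429 by limma) was 0.33 above the median of all genes, and was 0.35 after scaling (adjusted p = 0.422).

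The lower gene, hspb6, encodes a small heat shock protein (Hsp20) best known from muscle. It was at 52.2, 1.73, 10.6 and 2.77 TPM in riverine 1 to 4, and at 0, 17.8, 0.427 and 0.402 TPM in littoral 1 to 4. In the 5 benthic livers it was between 0.0312 and 0.297 TPM. All benthic livers lay below all riverine livers, while littoral livers spread over both ranges. The log2 fold change was −5.01 ± 1.25 (SE, adjusted p = 0.0264 by limma, exact permutation p = 0.00794), with −5.49 after scaling (adjusted p = 0.0202). With a pseudocount of 1 TPM it was −2.96 and no longer passed (adjusted p = 0.0635). Of the muscle markers listed only neb was in the table, at 0.0393 TPM or less in every liver. The sum of 9 smooth muscle, vessel and stellate cell genes was highest in littoral 2, at 90.4 TPM. This liver, at 17.8 TPM, had the most hspb6 after riverine 1. In riverine 1 the sum of the 9 genes was 8.52 TPM. Their part in the result was not tested.

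In the comparison of riverine with littoral fish, the ER folding genes had the highest class median. Only dnajc3 was called, so that 1 of 59 genes was higher in littoral fish, beside 0.998% of all genes, and 0 were lower, beside 0.459%. At an unadjusted p under 0.05 there were 21 of the 59 genes (35.6%), beside 18.9% of all genes. All littoral livers lay above all riverine livers for 11 genes, beside 7.9% of all genes, and below them for 2, beside 1.73%. The stricter thresholds were met by 1 gene, dnajc3, beside 0.761% of all genes. After median-of-ratios scaling the 1 called gene was instead dnajc12, lower in littoral fish (−1.34, adjusted p = 0.0486). On that scale 1.25% of all genes were lower and 0.771% higher. With the run as a covariate the 1 called gene was dnajc22, also lower (−1.59, adjusted p = 0.0249), beside 2.3% of all genes called in either direction. Of the 15 ER genes, 14 had a positive fold change and 13 lay above the median of all genes. The ER median was 1.14 beside 0.40 for all genes, and 0.87 beside 0.09 after scaling. The medians of the other classes were 0.66 for cytosolic heat shock genes, 0.52 for CCT genes, 0.67 for mitochondrial genes and 0.21 for other J-domain genes.

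Dnajc3 (p58IPK) is an ER-luminal J-domain protein that also restrains the stress kinase Perk. Its gene was at 3.98, 11.1, 13.9 and 11.9 TPM in riverine 1 to 4, at 47.1, 36.2, 20.2 and 31.8 TPM in littoral 1 to 4, and at 12.8, 12.6, 10.2, 25.3 and 14.5 TPM in benthic 1 to 5. All littoral livers were above all riverine livers, and among benthic livers only number 4 reached the littoral range. The littoral log2 fold change against riverine fish was 1.80 ± 0.41 (SE, adjusted p = 0.0487 by limma, exact permutation p = 0.0286, the smallest that 4 against 4 livers allow). The call sat at the threshold and was lost after median-of-ratios scaling, where the fold change was 1.42 (adjusted p = 0.126). It passed in 6 of 28 alternatives, with adjusted p between 0.0368 and 0.126 over them.

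Hsp90b1 (Grp94), which folds integrins and other secreted proteins, was at 13.5, 37.7, 81.6 and 46.8 TPM in riverine 1 to 4. It was at 292, 188, 70.22 and 135 TPM in littoral 1 to 4, and at 54.1, 97.5, 27.8, 143 and 127 TPM in benthic 1 to 5. Littoral 1 held 21.6 times the level of riverine 1, and littoral 3 lay inside the riverine range. The littoral minus riverine log2 fold change was 2.01 ± 0.61 (SE) with an adjusted p of 0.1002.

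Hyou1 (Grp170) is the exchange factor of the ER Hsp70. Its gene was at 2.07, 2.19, 5.83 and 4.28 TPM in riverine 1 to 4, at 13.6, 18.4, 10.04 and 17.6 TPM in littoral 1 to 4, and at 5.37, 10.1, 1.914, 22.2 and 12.6 TPM in benthic 1 to 5. Littoral and riverine livers did not overlap, and benthic livers spanned both ranges. The littoral log2 fold change against riverine fish was 2.12 ± 0.61 (SE) with an adjusted p of 0.0871. Without benthic 3 the adjusted p of this comparison was 0.0378, although the fold change itself uses no benthic liver.

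Protein disulfide isomerases form and reshuffle the disulfide bonds of secreted proteins. The genes pdia4, pdia5 and pdia6 had higher means in littoral than in riverine fish, and pdia3 did not. The gene pdia6 was at 17.7, 17.2, 30.9 and 29.5 TPM in riverine 1 to 4 and at 89.7, 75.8, 43.0 and 70.15 TPM in littoral 1 to 4, with no overlap. Its log2 fold change was 1.55 ± 0.48 (SE, adjusted p = 0.105). For pdia4 the riverine values of 10.1, 41.5, 79.1 and 31.7 TPM overlapped the littoral ones of 124, 125, 29.5 and 75.0 TPM, with a log2 fold change of 1.25 ± 0.61 (SE, adjusted p = 0.284). The low gene pdia5 was between 0.282 and 2.04 TPM in riverine and between 1.19 and 4.31 TPM in littoral livers, and was not called. By contrast pdia3, the partner of calnexin and calreticulin in glycoprotein folding, was at 315 ± 75.3 TPM (SD, n = 4) in riverine, 306 ± 84.8 TPM (SD, n = 4) in littoral and 299 ± 48.7 TPM (SD, n = 5) in benthic fish. Its littoral minus riverine log2 fold change was −0.06 ± 0.26 (SE, adjusted p = 0.927).

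The ER J-domain genes dnajb9 and dnajb11 encode partners of the ER Hsp70, the former a repressor of the Ire1 sensor. The level of dnajb9 was 21.0, 9.10, 3.85 and 3.64 TPM in riverine 1 to 4 and 43.0, 23.5, 14.3 and 22.6 TPM in littoral 1 to 4. Riverine 1, the lowest liver for hsp90b1 and pdia4, was thus the highest riverine liver for dnajb9. The level of dnajb11 was 14.7, 26.4, 33.8 and 34.95 TPM in riverine 1 to 4 and 64.6, 60.7, 32.1 and 50.6 TPM in littoral 1 to 4, with overlap through littoral 3. The log2 fold changes were 1.71 ± 0.61 (SE, adjusted p = 0.154) for dnajb9 and 0.95 ± 0.38 (SE, adjusted p = 0.198) for dnajb11.

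**Figure D4:**
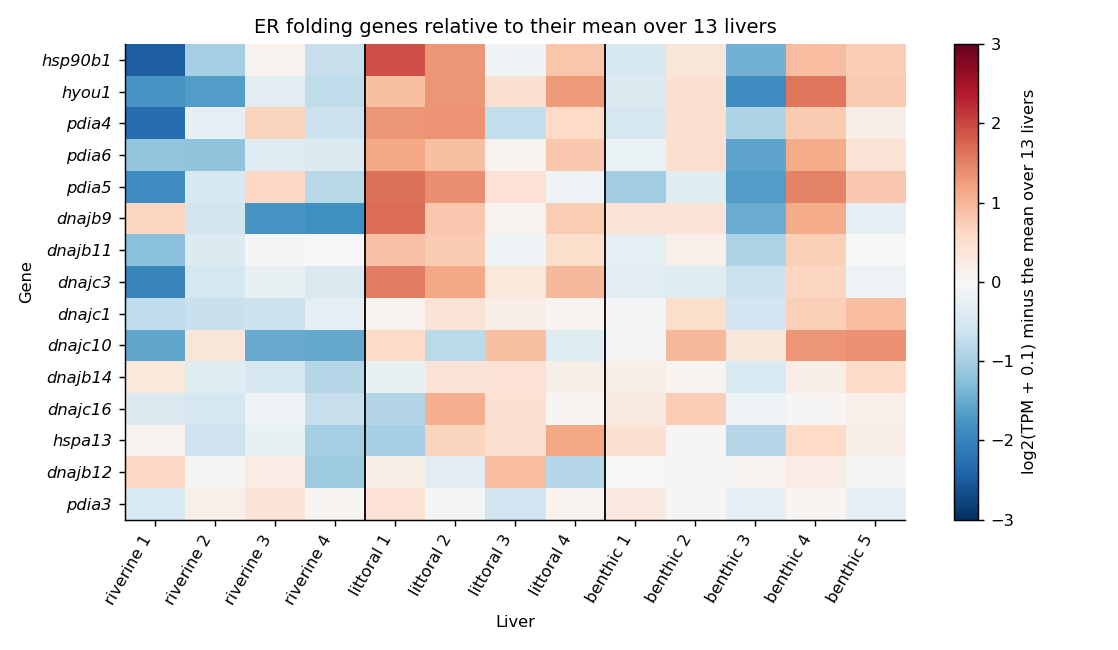
Log2(TPM + 0.1) of the 15 ER folding genes (rows) in each of 13 livers (columns, populations divided by black lines), with the mean of each gene over the livers subtracted. Red is above and blue below the mean. In TPM as deposited, littoral 1 is highest for 7 of the 15 genes and riverine 1 lowest for 7, and pdia3 in the last row varies least.

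Liver by liver, the ER genes did not split cleanly by population. In TPM as deposited, littoral 1 was the highest liver for 7 of the 15 genes, benthic 5 for 3 and littoral 2 for 2. Riverine 1 was the lowest for 7, riverine 4 for 4 and benthic 3 for 2. The median rank of the 15 genes, counted from the lowest liver at 1, was 12 in littoral 1, 11 in both littoral 2 and benthic 4, 3 in benthic 3 and 2 in riverine 1. Benthic 3, the highest liver for dnajb1 and hspb1, was therefore among the lowest for ER chaperones. After division by the median-of-ratios factors, the ER sum of riverine 1 (319 TPM as deposited) was no longer the lowest. It then lay above those of riverine 2, littoral 3, benthic 3 and benthic 5. Littoral 1 was sequenced with the riverine livers in the first run. The exocrine pancreas genes, whose cell type is rich in ER, summed to 514 TPM in littoral 1, less than the 625 TPM in riverine 1. Riverine 3, at 2441 TPM, had the highest hsp90b1 and pdia4 among riverine livers. Littoral 2, at 1971 TPM, had the highest pdia4 of all livers. The medians of the pancreas sum were 431 TPM in riverine, 919 TPM in littoral and 394 TPM in benthic fish. The part of the exocrine pancreas genes in the result was not tested.

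For the ER genes the benthic minus littoral median log2 fold change was −0.58, with 4 of 15 genes positive, beside 0.20 for all genes, and 0 of the 15 were called between these populations (lowest adjusted p = 0.2504 by limma). Against riverine fish, 14 of the 15 had a positive fold change in benthic fish, but 9 lay above the median of all genes. The ER median was 0.63 beside 0.62 for all genes, and 0.03 beside 0.14 after scaling. In benthic against riverine fish, dnajc10 was the ER gene that was called. It encodes a reductase (ERdj5) that opens disulfide bonds of misfolded proteins before their export for degradation. Its level was 0.176, 0.942, 0.187 and 0.180 TPM in riverine 1 to 4, between 0.366 and 1.41 TPM in littoral fish, and at 0.694, 1.51, 0.929, 1.95 and 2.00 TPM in benthic 1 to 5. Riverine 2 overlapped the benthic range and the other riverine livers did not. The log2 fold change was 1.859 ± 0.523 (SE, adjusted p = 0.0383 by limma), and with a pseudocount of 1 TPM it was 0.82 (adjusted p = 0.0666).

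The 7 numbered subunits, which with Tcp1 build the double ring of the chaperonin, had fold changes between −0.01 and 0.82 in littoral and between 0.32 and 1.14 in benthic fish against riverine fish. The class medians of 0.52 and 0.60 were near those of all genes, 0.40 and 0.62. The most abundant subunit genes, cct3 and cct4, were at 61.5 ± 10.02 TPM and 58.6 ± 16.6 TPM (SD, n = 4) in the riverine livers. They were at 60.5 ± 5.02 TPM and 62.5 ± 2.597 TPM (SD, n = 4) in the littoral livers, and at 81.4 ± 26.5 TPM and 71.9 ± 15.2 TPM (SD, n = 5) in the benthic livers. Neither passed in any comparison. In TPM as deposited, riverine 3 was the lowest liver for 6 of 7 genes, benthic 5 the highest for 5 and benthic 2 for 2. Benthic 5 also had the largest median-of-ratios factor of all livers. The factor of riverine 3 was 0.746, and the smallest was 0.657 in riverine 1. After division by the factors, riverine 3 was no longer the lowest liver for the CCT sum. Its sum (175 TPM as deposited) then lay above those of littoral 2 (280 TPM) and benthic 3 (218 TPM). That of benthic 5 (453 TPM as deposited) then lay below that of riverine 1 (257 TPM). As a log2 difference, the benthic CCT sum lay 0.55 above the riverine one as deposited and at −0.05 after scaling. Whether the subunits moved together beyond the scale of the libraries was not tested.

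One subunit gene was called. The level of cct7 was 13.6, 13.05, 11.04 and 15.1 TPM in riverine 1 to 4, 16.2, 24.6, 27.5 and 26.4 TPM in littoral 1 to 4, and 24.4, 39.2, 17.4, 28.8 and 43.3 TPM in benthic 1 to 5. All lake livers were above all riverine livers, and the 2 lake populations overlapped. The benthic log2 fold change against riverine fish was 1.14 ± 0.29 (SE, adjusted p = 0.0285 by limma), and 0.54 after scaling (adjusted p = 0.172). The gene cct6a was close, with 0.86 ± 0.27 (SE, adjusted p = 0.0515) and no overlap between the benthic and riverine livers. For tcp1, the subunit outside the symbol rule, the benthic minus riverine log2 fold change was 0.40 (adjusted p = 0.320).

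**Figure D5:**
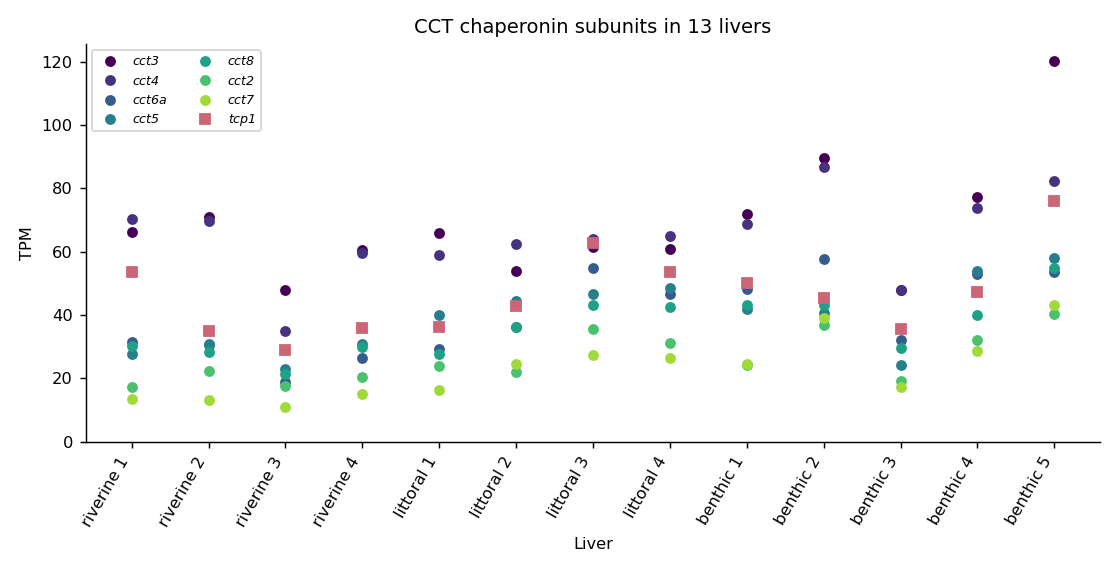
TPM (y axis, from 0) of the 7 numbered CCT subunit genes (circles) and of tcp1 (squares) in each of 13 livers (x axis). Riverine 3 and benthic 3 lie low for most subunits and benthic 5 lies high, with cct3 at 120 TPM.

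Among mitochondrial genes, the Hsp60 chaperonin gene hspd1 came closest to a call between riverine and littoral fish. It was at 3.71, 5.49, 10.3 and 12.95 TPM in riverine 1 to 4, at 25.2, 30.3, 33.8 and 22.7 TPM in littoral 1 to 4, and at 11.5, 23.8, 7.45, 30.4 and 19.7 TPM in benthic 1 to 5. Littoral and riverine livers did not overlap, and the benthic livers covered the gap between them. The littoral log2 fold change of 1.922 ± 0.461 (SE) just missed the threshold (adjusted p = 0.0539 by limma). It was 1.55 after scaling (adjusted p = 0.0949). The mitochondrial Hsp70 gene hspa9, which pulls proteins into the matrix, was at 40.0 ± 7.04 TPM (SD, n = 4) in riverine, 50.9 ± 13.2 TPM (SD, n = 4) in littoral and 44.7 ± 8.18 TPM (SD, n = 5) in benthic fish, and did not pass in any comparison.

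Dnajc15, a J-domain protein of the import motor in the inner membrane, was the called mitochondrial gene. It was at 2.58, 0.952, 0.260 and 0.361 TPM in riverine 1 to 4, at 6.72, 3.79, 3.40 and 2.58 TPM in littoral 1 to 4, and at 2.30, 6.71, 2.22, 7.84 and 4.82 TPM in benthic 1 to 5. Riverine 1 overlapped the lake livers and the other riverine livers did not. The benthic log2 fold change against riverine fish was 2.38 ± 0.58 (SE, adjusted p = 0.0253 by limma), and the littoral one was 2.26 ± 0.61 (SE, adjusted p = 0.0750). The gene dnajc19, of the same import motor, was far more abundant, at 94.7 ± 20.7 TPM (SD, n = 4) in riverine and 73.4 ± 10.2 TPM (SD, n = 5) in benthic livers, with a log2 fold change of −0.35 ± 0.23 (SE, adjusted p = 0.312).

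The other abundant J-domain genes ran differently. The level of dnajc22, whose fly counterpart acts in endocytosis, was 125.7, 93.8, 130 and 112 TPM in riverine 1 to 4 and 38.0, 67.1, 87.8 and 83.8 TPM in littoral 1 to 4. Littoral livers were all below riverine livers, and the benthic ones, between 73.2 and 112 TPM, overlapped both. The littoral minus riverine log2 fold change was −0.80 ± 0.28 (SE, adjusted p = 0.145), and −1.18 after scaling (adjusted p = 0.0825). The Hsp70 partner gene dnaja2 was at 44.3 ± 13.03 TPM (SD, n = 4) in riverine, 45.7 ± 19.7 TPM (SD, n = 4) in littoral and 41.2 ± 4.22 TPM (SD, n = 5) in benthic livers.

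No chaperone gene was called between littoral and benthic fish. Of 59 genes, 0 were higher in benthic fish, beside 0.312% of all genes, and 0 were lower, beside 0.0473%, by limma. The stricter thresholds were likewise met by 0 genes, beside 0.222%. At an unadjusted p under 0.05 there were 5 genes (dnajb1, dnajb2, dnajb5, dnajc3 and hspb1), or 8.47%, beside 10.9% of all genes. All benthic livers were above all littoral livers for 2 genes (dnajb1 and dnajb5), beside 3.07% of all genes, and below them for 0 genes, beside 0.936%. The count of called chaperone genes was also 0 under each of 30 alternatives run for this comparison. Over all genes these alternatives called between 0.00946% and 0.591%.

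Other genes of the same pathways were read from lists. Of 42 genes of the unfolded protein response and ER folding, sil1 was called higher in littoral fish, with 5 called higher (sil1, herpud1, atf6, derl2 and sec61b) and 0 lower in benthic fish, against riverine fish in each case. Among all genes tested, 0.998% were higher in littoral and 9.66% in benthic fish. The exchange factor gene sil1 was at 1.78, 2.12, 1.49 and 0.872 TPM in riverine 1 to 4, between 5.43 and 12.0 TPM in littoral fish and between 3.37 and 12.9 TPM in benthic fish, so that both lake populations lay above the riverine one. Its log2 fold change was 2.56 ± 0.46 (SE, adjusted p = 0.0172 by limma) in littoral and 2.20 ± 0.43 (SE, adjusted p = 0.0116) in benthic fish, and it passed after scaling in both (adjusted p = 0.0371 and 0.0411). After scaling 1 gene of this list was called lower in benthic than in riverine fish, beside 4.82% of all genes. This was ern1, of the ER stress sensor Ire1, with a log2 fold change of −2.55 (adjusted p = 0.0261) and of −1.95 unscaled. Unscaled, ern1 was between 14.1 and 60.7 TPM in riverine and between 3.86 and 15.8 TPM in benthic livers, with overlap. The gene herpud1, of the machinery that exports misfolded ER proteins, had a benthic log2 fold change of 1.39 (adjusted p = 0.0245), and the sensor gene atf6 of 1.503 (adjusted p = 0.0442). After scaling herpud1, atf6, derl2 and sec61b were not called, with adjusted p of 0.133, 0.140, 0.433 and 0.802.

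Of the other transcription factor genes of the ER response, xbp1, atf4 and ddit3 were not called in any comparison, unlike atf6 in benthic against riverine fish. The gene xbp1 was abundant, between 181 and 791 TPM, with a littoral minus riverine log2 fold change of 0.75 (adjusted p = 0.311). The values for atf4 and for ddit3, which drives cell death in prolonged stress, were 0.80 (adjusted p = 0.338) and −0.82 (adjusted p = 0.428). The isomerase gene p4hb and the lectin chaperone gene canx had 1.06 (adjusted p = 0.165) and 0.67 (adjusted p = 0.259).

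Of 20 cochaperone and heat shock factor genes, 4 were called higher in benthic than in riverine fish (ptges3, unc45a, bag5 and cdc37), beside 9.66% of all genes, and 0 in the other comparisons. The Hsp90 co-chaperone gene ptges3 (p23) was at 10.1, 12.5, 8.40 and 9.33 TPM in riverine 1 to 4, between 16.6 and 44.4 TPM in littoral fish and between 19.3 and 51.7 TPM in benthic fish. All lake livers were above all riverine livers, with a benthic log2 fold change of 1.81 ± 0.33 (SE, adjusted p = 0.00836 by limma). For bag5, an Hsp70 exchange factor gene, all 5 benthic livers were above the 8 others, with 0.929 TPM in the lowest benthic and 0.926 TPM in the highest other liver. After scaling 0 of these 4 passed. Of 9 TRiC partner genes (tcp1 and the prefoldins, which pass actin and tubulin to the chaperonin, among them) 0 were called in any comparison, with 5, 7 and 5 of 9 fold changes positive. Called genes, in both directions together, made up 1.46%, 11.2% and 0.359% of all genes in these comparisons. Of 8 mitochondrial folding and protease genes, lonp1, the matrix protease, was called higher in littoral than in riverine fish (1.57 ± 0.31, SE, adjusted p = 0.0262 by limma), beside 0.998% of all genes. After scaling, hscb, a J-domain gene of iron-sulfur cluster assembly, was called lower in the benthic livers against the riverine ones (−1.03, adjusted p = 0.0363), beside 4.82% of all genes.

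The counts of calls rested on few livers. The 9 calls between riverine and benthic fish became 2, 3 and 1 without riverine 1, 3 and 4, 1 and 2 without benthic 2 and 5, and 15 without benthic 3. Without benthic 2 and 3 together only dnajb1 remained called, and without benthic 2, 3 and 5 the count was 0. Over the whole table, 2359 of 21147 genes were called with all livers, 723, 838 and 439 without riverine 1, 3 and 4, 688 and 925 without benthic 2 and 5, and 2401 without benthic 3. Without benthic 2 and 3 together 368 genes were called, and without benthic 2, 3 and 5 the number was 43.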

How the data were processed

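Total RNA of homogenized livers was sequenced on an Illumina platform. The labels state ribosomal RNA depletion and a stranded kit, whereas the study's methods name a poly(A) fraction. The authors trimmed reads with Trim Galore, cut the longer reads to a common length, quantified transcripts of the Maylandia zebra UMD2a annotation with kallisto, and deposited TPM per transcript and fish, which are not normalized between libraries. Read counts were not used here.

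TPM of 51012 transcripts were summed by symbol. Of the 60 chaperone genes, 45 had 1 transcript. Genes were tested on log2(TPM + 0.1) in R 4.3.3 by limma 3.58.1 (3 populations in 1 fit, trended empirical Bayes, Benjamini-Hochberg adjustment per comparison), after a test on simulated data. Two-sided exact permutation tests were run for named genes. Fish were numbered in accession order. Named genes were those called in any comparison, the 3 most abundant of each class, landmark chaperones, and up to 3 called genes per pathway list and direction with fixed regulators. Genes, classes and lists were chosen with earlier results of these data known. In the alternatives, pseudocount, filter, scaling, run, model, transcript choice and livers were changed. Coordinates, sequences and methylation at these genes were not analysed here, since the reference held another assembly.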

Additional observations from a re-analysis of the deposited data

Results flagged for a closer look

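Of 96 groups of livers examined (27 genes and 5 class sums in 3 populations), 5 held a liver far from the rest of its population, where the gap to its nearest neighbour took up most of the group's range on the log2 scale. Chance alone flags about 1 in 20 groups. Riverine 2 was far above the other riverine livers for dnajc10, at 0.942 TPM. Riverine 3 was far below them for dnajc19, at 63.7 TPM, and riverine 1 for hspb1, at 2.81 TPM. Benthic 3 was far below the other benthic livers for hspa9, at 30.9 TPM. For the summed other J-domain genes, riverine 2 lay below the other riverine livers, at 199 TPM.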

How the results depend on the processing

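No paired analysis was possible because each library is a different fish and each fish belongs to 1 population. The direction of all 10 called genes was kept under every alternative run, and 157 of 279 repeats kept the call. Without each liver in turn, the count of called chaperone genes ranged from 0 to 5 between riverine and littoral fish (1 as reported). Between riverine and benthic fish it ranged from 1 to 15 (9 as reported). Over all genes the share called ranged from 0.473% to 4.08% and from 2.08% to 16.8%, in the same order. Between riverine and littoral fish the chaperone count was 0 with a pseudocount of 0.5 or 1 TPM, without a filter and with quantile normalization. It was also 0 with each pair fitted alone, without the mean trend and for the most abundant transcript, and 2 with a filter of 1 TPM. Over all genes the settings with a count of 0 called between 0.345% and 1.2%, and the filter of 1 TPM called 3.94%. Between riverine and benthic fish the chaperone count was 5 with a pseudocount of 1 TPM, beside 5.69% of all genes. It was 4 with median-of-ratios scaling (9.98%) or quantile normalization (6.2%), and 0 with the run as a covariate (2.19%). Alternatives chosen after seeing the data gave, in the same comparison, 0 with scaling and run together, 1 without benthic 2 and 3 and 0 without benthic 2, 3 and 5. Between riverine and littoral fish the last 2 gave 0, beside 0.936% and 0.728% of all genes. The cause was not tested. The depth behind low TPM is unknown, so that genes under 1 TPM, such as dnajc10, are less certain.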
